A study of Homo sapiens with 18 samples.

Results

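HCT116 cells that had been exposed to erastin (ER) for 24 h were compared with HCT116 cells exposed to it for 4 h. HCT116 is a human colon cancer cell line, obtained by the study from ATCC and grown as a bulk culture, and ER is a small molecule that blocks the import of cystine and triggers ferroptosis. Both groups received 2.5 µM ER and each is made of 3 arrays, so the groups compared hold 6 of the 18 arrays of the series. The other arrays are 3 of untreated HCT116 cells and 9 of HT-29 cells, a second human colon cancer line with the same 3 conditions. Per the methods, the 3 arrays of a group come from independent experiments of growing cells, and the p-values measure only the spread between them. For the arrays, the labels and methods give neither a vehicle nor a time in culture of the untreated cells (the study names time-matched controls for its RT-PCR), and the labels do not separate time in ER from time in culture, so the effects of both cannot be told apart here. The members are the transcripts that the platform annotation ties to a single gene, 35528 of the 135750 transcripts tested.

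Ferroptosis is a form of cell death driven by iron-dependent oxidation of membrane lipids, and cells hold it off with glutathione, which they build from cystine. When cystine or another amino acid runs short, uncharged tRNAs activate the kinase GCN2 and translation initiation slows, while the mRNA of the transcription factor ATF4 is still translated. ATF4 then drives genes for amino acid synthesis, import and tRNA charging, a program known as the integrated stress response. Growth factors, serum and cell attachment act on other sets of genes, the immediate early genes and the targets of SRF and YAP. The immediate early genes are known to respond within hours and to return quickly.

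The arrays of a group were alike, with correlations of 0.970 to 0.977 between the 24 h arrays and of 0.980 to 0.984 between the 4 h arrays. The 24 h array of replicate 1 stood apart. On the main axis of variation of the 6 arrays, which held 32.9% of the variance, it lay at -143.9 and the other 5 arrays lay between -20.2 and 75.7. List counts that moved by more than 1.5 times without this array are given both ways. Array medians differed little over the series, from 5.44 to 5.61 on the log2 scale. Of 15 colon epithelial markers the median member lay at 6.94 at 4 h and 6.61 at 24 h, close to those of the other cell types below. The general epithelial genes KRT8, KRT18, KRT19 and EPCAM were high, with KRT8 at 17.44 and 16.79, while VIL1, CDH17, GPA33, LGALS4 and CEACAM5, which mark differentiated colon cells, lay between 4.40 and 5.76 in both groups. CDH1, CDX1, CDX2, CEACAM6, ELF3 and KLF5 were also measured, and their levels are not given here. The lists of fibroblast, leukocyte and endothelial markers held 0 genes that passed either test, and their median members lay at 5.79 to 6.41 in both groups. The deposited log2 values reach 19.9, above the 16 at which a scanner of 16 bits ends, so the scale is not plainly that of a scanner and every fold given here shares that doubt.

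Between 4 h and 24 h of ER, enzymes of amino acid synthesis such as ASNS and PHGDH and stress response genes such as DDIT4 and CHAC1 rose, and THBS1, F3 and CCN1 fell most among the genes that passed the test. Limma was fitted on the 9 HCT116 arrays, of which the untreated ones add only to the estimate of the spread. With a Benjamini-Hochberg adjusted p under 0.05 over all 135750 transcripts, 66 single-gene transcripts were higher at 24 h (0.186% of those tested) and 11 were lower (0.031%). A fit of the 6 treated arrays alone called 11 higher and 5 lower. In all 77 transcripts of the main fit the 3 arrays of 24 h lay beyond the 3 arrays of 4 h. This largely follows from how they were picked, on the same arrays. Over protein-coding genes, 13.4% had all 24 h arrays above all 4 h arrays and 11.6% had them below. The log2 changes of the 77 ran from 1.18 to 3.62 among the higher and from -2.995 to -1.31 among the lower. The median standard error was 0.23 over all single-gene transcripts. By looser thresholds taken from the study's methods, a fold of 1.2 or more together with an unadjusted p no higher than 0.005, here with limma's p, there were 804 differentially expressed transcripts (DETs) higher at 24 h (2.26%) and 449 lower (1.26%). By the methods' t-test there were 391 higher and 238 lower. The words rose and fell are kept below for the adjusted test, and a gene that met only the looser rule is called a DET.

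**Figure D1:**
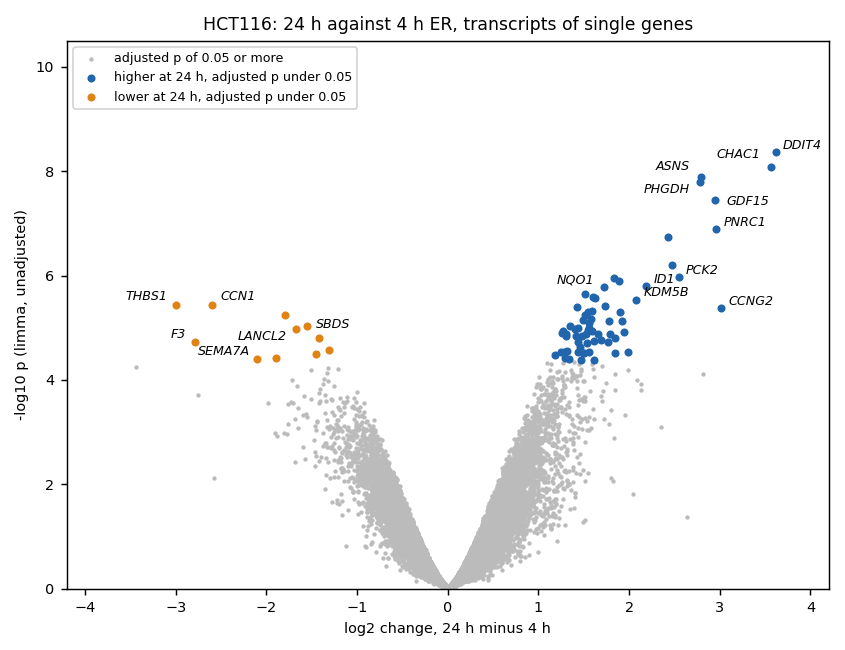
Each point is a transcript of a single gene, with the log2 change from 4 h to 24 h of ER on the horizontal axis and the negative log10 of limma's unadjusted p on the vertical axis. The 66 blue points rose and the 11 orange points fell at an adjusted p under 0.05; DDIT4 and CHAC1 lie farthest to the right among the blue, and THBS1 and F3 farthest to the left among the orange.

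The largest rise was that of DDIT4, which encodes a stress-induced inhibitor of the growth kinase MTORC1. Its log2 signals were 8.76, 9.11 and 9.37 on the 4 h arrays and 12.77, 12.45 and 12.88 on the 24 h arrays. The untreated arrays gave 10.30, 9.46 and 9.85, so that the 4 h arrays lay below all of them and the 24 h arrays above all of them. The change from 4 h to 24 h was 3.62 (SE 0.25, n = 3 and 3, limma adjusted p = 0.000559), a fold of 12.3. CHAC1, an enzyme that breaks down glutathione and a known ATF4 target, showed the same order of groups, with 8.06, 7.73 and 7.60 at 4 h and 11.04, 11.09 and 11.96 at 24 h. It rose by 3.57 (SE 0.26, limma adjusted p = 0.000559), or 11.9-fold, from a level at 4 h that lay below the untreated 8.72, 8.35 and 8.33. GDF15, a secreted hormone of the TGF-beta family released by stressed cells, had 6.71, 7.30 and 6.85 at 4 h and 10.19, 9.56 and 9.96 at 24 h, a rise of 2.95 (SE 0.25, limma adjusted p = 0.000951). Its 24 h arrays were above all arrays of the other groups.

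Genes that make amino acids rose from levels at 4 h that were close to those of untreated cells. ASNS, the enzyme that makes asparagine, had log2 signals of 13.03, 12.70 and 12.70 at 4 h and of 15.74, 15.70 and 15.36 at 24 h, with 13.03, 12.50 and 12.77 in untreated cells. The 4 h and untreated arrays overlapped and the 24 h arrays stood clear of both, with a change of 2.79 (SE 0.21, limma adjusted p = 0.000559) or 6.91-fold. PHGDH, which commits glycolytic carbon to serine, went from 10.33, 10.22 and 9.80 to 13.04, 12.68 and 12.99, a rise of 2.79 (SE 0.22, limma adjusted p = 0.000559), or of 1.43 as the mean over all transcripts of the gene. PSAT1, the next enzyme of that path, went from 15.38, 15.24 and 15.43 to 16.97, 17.07 and 16.81 and rose by 1.60 (SE 0.20, limma adjusted p = 0.0184). PCK2, the mitochondrial enzyme that makes phosphoenolpyruvate, went from 6.46, 5.80 and 5.70 to 8.88, 7.99 and 8.73, a rise of 2.55 (SE 0.29, limma adjusted p = 0.0123). In each of these genes the lowest 24 h array was above the highest 4 h array. Of the 22 measured genes of amino acid synthesis and metabolism, 5 were DETs higher at 24 h and 0 were lower, these 4 and ASS1 (1.04, SE 0.21), the enzyme that makes argininosuccinate from citrulline. The median change over the list was 0.36, against 0.00 over the 17351 protein-coding genes, of which 3.35% were DETs higher and 1.81% DETs lower at 24 h. By the adjusted test 58 of those genes rose (0.334%) and 10 fell (0.0576%).

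The tRNA synthetases of the cytosol charge tRNAs with amino acids. AARS1, for alanine, had 13.36, 13.56 and 13.36 at 4 h and 14.86, 14.95 and 15.01 at 24 h, a rise of 1.51 (SE 0.18, limma adjusted p = 0.0167), and GARS1, for glycine, rose by 1.28 (SE 0.18, limma adjusted p = 0.0297). SARS1 and CARS1 were DETs higher at 24 h, and RARS1, for arginine, was a DET lower at 24 h with a change of -0.73 (SE 0.21), so 4 and 1 of the 17 measured were DETs. Without the 24 h array of replicate 1, 5 were DETs higher and 0 were lower. Of the 15 mitochondrial synthetases, 0 were DETs higher and MARS2 was a DET lower, at -1.05 (SE 0.21). Among 25 amino acid transporters, 5 were DETs higher and 2 lower, or 5 and 1 without that array. SLC43A1, a carrier of branched-chain and other large neutral amino acids, rose by 1.92 (SE 0.26, limma adjusted p = 0.0256), and SLC6A9, a glycine carrier, by 1.52 (SE 0.22, limma adjusted p = 0.0299). SLC7A11, the cystine importer that ER inhibits, had 12.80, 11.55 and 12.08 at 4 h and 15.95, 14.01 and 13.51 at 24 h. Its groups did not overlap, and it was a DET with a change of 2.35 (SE 0.54) that missed the adjusted test (limma adjusted p = 0.140), with the largest value on the 24 h array of replicate 1. The lower transporters were SLC38A5 (-1.77, SE 0.42) and SLC38A7 (-0.84, SE 0.23), of which the former ran from 10.92 to 13.03 over the 24 h arrays.

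Among 28 measured regulators and relays of the integrated stress response, 7 were DETs higher at 24 h and 0 were lower, with a median change of 0.39. Besides CHAC1 and GDF15 they were TRIB3 (1.59, SE 0.26), a pseudokinase that binds ATF4, the hormone FGF19 (1.07, SE 0.21), the repressor JDP2 (1.14, SE 0.22), the transcription factor DDIT3 (0.90, SE 0.24) and the heme-regulated kinase EIF2AK1 (0.68, SE 0.19). ATF4 itself had 13.12, 13.005 and 13.05 at 4 h and 13.47, 13.65 and 13.995 at 24 h. Its arrays did not overlap, but its change of 0.65 (SE 0.20) met neither rule, and the change of ATF3, another factor of the program, was 0.29 (SE 0.29) with overlapping groups. Of the 16 genes that restrain MTORC1, 3 were DETs higher at 24 h, DDIT4, SESN2 (0.97, SE 0.23) and TSC22D3 (0.86, SE 0.21), and 0 were lower. Of 30 endoplasmic reticulum chaperones and unfolded protein response genes, ERO1B was a DET higher and 4 genes, led by DNAJB11 (-1.0, SE 0.21), were DETs lower, and without the 24 h array of replicate 1 the list held 0 higher and 1 lower. The master chaperone HSPA5 changed by -0.32 (SE 0.21) and was not a DET. Of 27 heat shock proteins, 0 were DETs higher and 5 were lower, among them DNAJA1 (-1.19, SE 0.32) and HSPH1 (-1.18, SE 0.34), or 3 without that array.

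Promoter sequences are shown for 6 of the genes described in the text, picked because a searched motif was found there. They are from RefSeq on build GRCh38.p14, 5′ to 3′ on the strand of the gene, within the 250 bases before the annotated start, with the motif in capitals. The C/EBP-ATF response element, searched as TGATGNAA on both strands with N for any base, is the site through which ATF4 is known to act. A match is in 3.14% of 35116 promoters of all genes and in 4 of the 67 promoters found for genes that rose (5.97%), those of AARS1, ASNS, CHAC1 and GARS1. Promoters were found for 43 of the 66 genes that rose. Among DETs higher of the stress response, amino acid, cytosolic synthetase and MTORC1 lists, a match is in 5 of 39 promoters (12.8%). In ASNS it lies at -68 to -61 from the start on the strand of the gene (chr7:97872424-97872521, minus strand), and in CHAC1 at -209 to -202 (chr15:40953221-40953314, plus strand) and AARS1 at -187 to -180 (chr16:70289641-70289738, minus strand) on the opposite strand.
ASNS: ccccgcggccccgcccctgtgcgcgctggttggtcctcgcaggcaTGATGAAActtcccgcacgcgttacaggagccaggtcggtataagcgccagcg
CHAC1: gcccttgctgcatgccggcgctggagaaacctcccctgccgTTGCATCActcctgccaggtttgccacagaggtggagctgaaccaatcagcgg
AARS1: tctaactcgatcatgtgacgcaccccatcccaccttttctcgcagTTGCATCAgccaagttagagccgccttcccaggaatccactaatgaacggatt

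Of the genes that fell or were DETs lower, THBS1 is shown for GGAATG, the core that TEAD factors, the DNA-binding partners of YAP, are known to bind (11.9% of all promoters), at -46 to -41 (chr15:39580988-39581078, plus strand). F3 is shown for the AP-1 site, TGACTCA or TGAGTCA (4.2%), at -210 to -204 (chr1:94541918-94542009, minus strand), and JUN for TGACATCA (2.37%), a variant of that site, at -67 to -60 (chr1:58784062-58784159, minus strand). All motifs were searched on both strands. The CArG box of SRF and CACGTG were searched too and are not shown. F3, named below as a target of SRF or YAP, had no match to GGAATG or to the CArG box. A match is a description of the letters and not of a bound factor. Whether these shares differ from those of other promoters was not tested, and the lists were chosen with earlier results of these data known.
THBS1: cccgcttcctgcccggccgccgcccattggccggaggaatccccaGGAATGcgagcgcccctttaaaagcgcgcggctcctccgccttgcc
F3: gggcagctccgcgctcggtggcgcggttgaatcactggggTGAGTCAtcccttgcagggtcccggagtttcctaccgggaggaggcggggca
JUN: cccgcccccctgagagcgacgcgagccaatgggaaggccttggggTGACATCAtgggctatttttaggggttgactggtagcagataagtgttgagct

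The genes that fell most were THBS1, F3 and CCN1, which are known targets of SRF or YAP. THBS1 encodes thrombospondin, a secreted matrix protein, and had log2 signals of 11.53, 10.40 and 11.03 at 4 h and of 7.43, 8.06 and 8.48 at 24 h. The untreated arrays, at 7.77, 9.13 and 8.73, overlapped those of 24 h and lay below those of 4 h. The change was -2.995 (SE 0.38, limma adjusted p = 0.0207), so its signal at 4 h was 7.97 times that at 24 h. F3, or tissue factor, the cell surface trigger of blood clotting, had 11.84, 12.12 and 11.77 at 4 h and 8.77, 9.39 and 9.20 at 24 h, a change of -2.79 (SE 0.42, limma adjusted p = 0.0335). CCN1, a matricellular protein that binds integrins, went from 9.64, 9.98 and 9.83 to 7.06, 7.07 and 7.50, a change of -2.61 (SE 0.33, limma adjusted p = 0.0207). In F3 and CCN1 the untreated arrays spread widely, from 8.80 to 10.79 and from 7.17 to 8.68, with replicate 1 the lowest in both. The adjusted calls of these 3 genes were lost when any of the 4 h arrays, or the 24 h array of replicate 1 or 2, was left out, and that of F3 also without the 24 h array of replicate 3. The limma adjusted p then reached 0.133 for THBS1 and CCN1 and 0.170 for F3, with changes of the same sign.

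**Figure D2:**
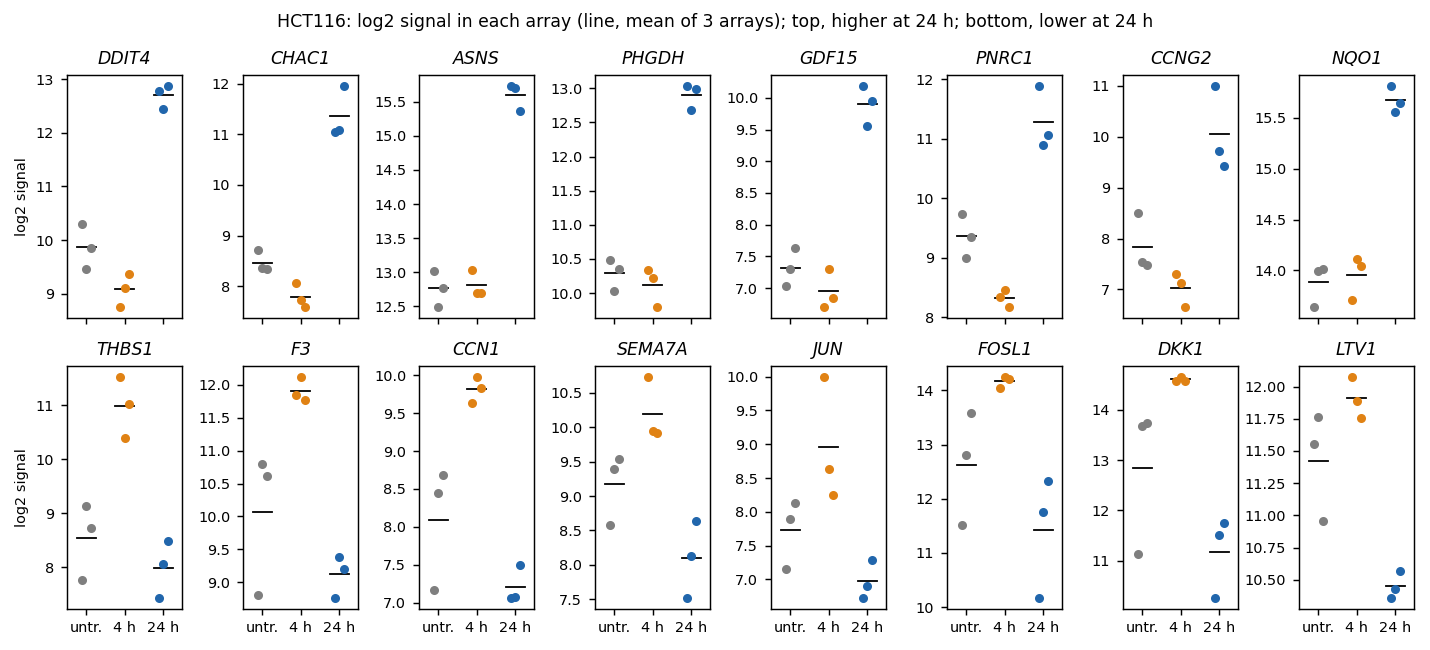
Log2 signal of each HCT116 array (points) and group mean (line) for 8 genes higher at 24 h (top) and 8 lower (bottom), in untreated cells and after 4 h and 24 h of ER. In every panel the 3 arrays of 24 h are clear of the 3 of 4 h, which largely follows from how the genes were picked. The untreated arrays of DDIT4 and CHAC1 lie between the groups, and those of THBS1 reach into the 24 h arrays.

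Of 35 measured SRF and YAP targets, 8 were DETs lower at 24 h and 0 were higher, and the median change was -0.55. The other 5 were SRF itself (-1.42, SE 0.28), MYL9 (-1.45, SE 0.34), NUAK2 (-1.08, SE 0.27), FJX1 (-0.92, SE 0.25) and TAGLN (-1.18, SE 0.32), of which MYL9 and TAGLN are parts of the contractile apparatus. In 20 of the 35 all 24 h arrays were below all 4 h arrays, a pattern seen in 11.6% of protein-coding genes. CCN2, often used beside CCN1 as a readout of YAP, changed by -0.57 (SE 0.22) and was not a DET. The immediate early transcription factors split: of 32 measured, 7 were DETs lower and 2 were DETs higher at 24 h. FOSL1, an AP-1 subunit, had 14.04, 14.25 and 14.22 at 4 h and 10.17, 11.75 and 12.32 at 24 h, with a change of -2.75 (SE 0.53, limma adjusted p = 0.0888). JUN, its partner, had 9.999, 8.63 and 8.24 at 4 h and 6.73, 6.91 and 7.28 at 24 h, with a change of -1.98 (SE 0.40, limma adjusted p = 0.0983). Neither passed the adjusted test, and the rule that named both asked for groups that do not overlap. The other DETs lower were MYC (-1.35, SE 0.37), NR4A1 (-1.57, SE 0.43), ETS1 (-0.99, SE 0.23), ETS2 (-0.83, SE 0.23) and FOSL2 (-0.94, SE 0.27), which also missed the adjusted test. Separate groups are no added support here, since 448 of the 449 DETs lower had them. Without the 24 h array of replicate 1, which was the lowest for FOSL1, JUN and MYC, 3 rather than 7 of the list were DETs lower.

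Other factors of the immediate early list were higher at 24 h. ETV5, a factor of the ETS family induced by ERK signalling, had 13.05, 13.58 and 13.03 at 4 h and 14.64, 15.16 and 15.18 at 24 h, and rose by 1.77 (SE 0.24, limma adjusted p = 0.0256). BHLHE40 was a DET at 1.5 (SE 0.29). EGR1, at 0.81 (SE 0.31), and FOS, at 0.02 (SE 0.20) and with overlapping groups, met neither rule. Among 24 feedback inhibitors of MAPK signalling, SPRED3 and DUSP16 were DETs higher and ZFP36L2 and DUSP7 were DETs lower. Of the 23 EGF receptor ligands and receptors, ERBB3, a receptor for neuregulins, rose by 1.34 (SE 0.22, limma adjusted p = 0.0492) and the others were not DETs. DKK1, a secreted inhibitor of Wnt signalling, had the most negative change of all single-gene transcripts, from 14.58, 14.66 and 14.58 at 4 h to 10.26, 11.5 and 11.74 at 24 h. Its change of -3.44 (SE 0.58) just missed the adjusted test (limma adjusted p = 0.0587). The untreated arrays of DKK1, at 11.13, 13.68 and 13.73, differed more among themselves than the 4 h arrays did. CCND1 was also a DET lower (-1.22, SE 0.28) and RNF43 a DET higher (1.13, SE 0.23) among 20 Wnt targets and inhibitors.

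Genes for assembling ribosomes were lower at 24 h over most of their list. LTV1, an assembly factor of the small subunit, had 12.08, 11.89 and 11.76 at 4 h and 10.36, 10.43 and 10.57 at 24 h, and fell by 1.46 on the log2 scale (SE 0.23, limma adjusted p = 0.0449). SBDS, which releases an assembly factor from the large subunit, had 11.74, 11.72 and 11.49 at 4 h and 9.92, 10.27 and 10.10 at 24 h, and changed by -1.55 (SE 0.22, limma adjusted p = 0.0283). The transcript of its pseudogene SBDSP1 changed by -1.42 (SE 0.21, limma adjusted p = 0.0312), and the array's probes may not tell such copies from their parent genes. Of the 47 measured ribosome biogenesis factors, 21 were DETs lower and 0 were higher at 24 h. In 36 of the 47 all 24 h arrays were below all 4 h arrays. Of protein-coding genes 1.81% were DETs lower, and 11.6% had all 24 h arrays below all 4 h arrays. The median change over the 47 was -0.85. UTP15 (-1.37, SE 0.24), NIP7 (-1.26, SE 0.23) and GRWD1 (-1.71, SE 0.34) followed LTV1, none of them with an adjusted p under 0.05. The 24 h arrays of GRWD1 spread widely, with 10.47, 11.42 and 12.03 at 24 h against 12.75, 13.28 and 13.01 at 4 h. Without the 24 h array of replicate 1, 7 of the 47 were DETs lower, where 0.928% of protein-coding genes were.

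The machinery of RNA polymerases I and III, which transcribe ribosomal RNA and tRNA, had 6 DETs lower and 0 higher among 34 genes measured, and 4 without that array. POLR1G led with 10.17, 10.02 and 9.99 at 4 h and 7.73, 8.41 and 9.06 at 24 h, a change of -1.66 (SE 0.30). The mRNAs of the ribosomal proteins themselves differed from their assembly factors in these counts, with 0 DETs among 33 measured of 55 listed. Their median change was 0.02. Their median level at 4 h was 15.67, against 12.41 for the assembly factors, and whether signals that high respond less was not tested. Of 47 genes of DNA replication and S-phase entry, CCNE2 (-1.65, SE 0.38) and CDC25A (-1.88, SE 0.45) were DETs lower and 0 were higher, with a median of -0.38. Of 40 mitotic genes CDC25C was a DET higher and CDC20 a DET lower, with 1 higher and 0 lower without the 24 h array of replicate 1, and of 45 replication-dependent histone genes 0 were DETs. Bulk RNA does not tell fewer cells in a phase from less RNA per cell. In glycolysis, 4 of 20 genes were DETs lower, the glucose transporters SLC2A3 (-1.73, SE 0.34) and SLC2A1 (-0.89, SE 0.23), hexokinase HK2 (-1.76, SE 0.35) and PFKP (-0.75, SE 0.21), and without the 24 h array of replicate 1 there were 2.

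Genes linked to quiescence and to FOXO factors held 15 DETs higher and 0 lower of 35 measured, the largest share of higher DETs of the lists examined. The lists were chosen with earlier results of these data known, so this rank is only a description. FOXO factors are active when growth signals are low. PNRC1, a nuclear protein that restrains ribosomal RNA processing, had 8.34, 8.46 and 8.18 at 4 h and 11.90, 10.90 and 11.07 at 24 h, and rose by 2.96 (SE 0.28, limma adjusted p = 0.00294). CCNG2, a cyclin that slows the cell cycle, had 7.31, 7.13 and 6.66 at 4 h and 11.01, 9.71 and 9.43 at 24 h, and rose by 3.02 (SE 0.39, limma adjusted p = 0.0215), or by 1.77 as the mean over its transcripts. KDM5B, a histone lysine demethylase, went from 11.41, 11.74 and 11.43 to 14.23, 13.20 and 13.38, a rise of 2.08 (SE 0.26, limma adjusted p = 0.0188). In all 3 genes the 24 h array of replicate 1 was the highest and the groups were clear of each other. YPEL2, of a family of small zinc-binding proteins, rose by 1.54 (SE 0.20, limma adjusted p = 0.0223). The other 11 DETs were HBP1, BCL6, GABARAPL1, RBL2, YPEL3, TCP11L2, KLF9, FOXO4, MXI1, YPEL5 and KDM7A, with changes of 0.83 (FOXO4) to 2.09 (HBP1). The median change over the 35 genes was 0.66, and 13 were DETs without the 24 h array of replicate 1. FOXO3 (0.15, SE 0.22) and SESN1 (0.11, SE 0.23) met neither rule.

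**Figure D3:**
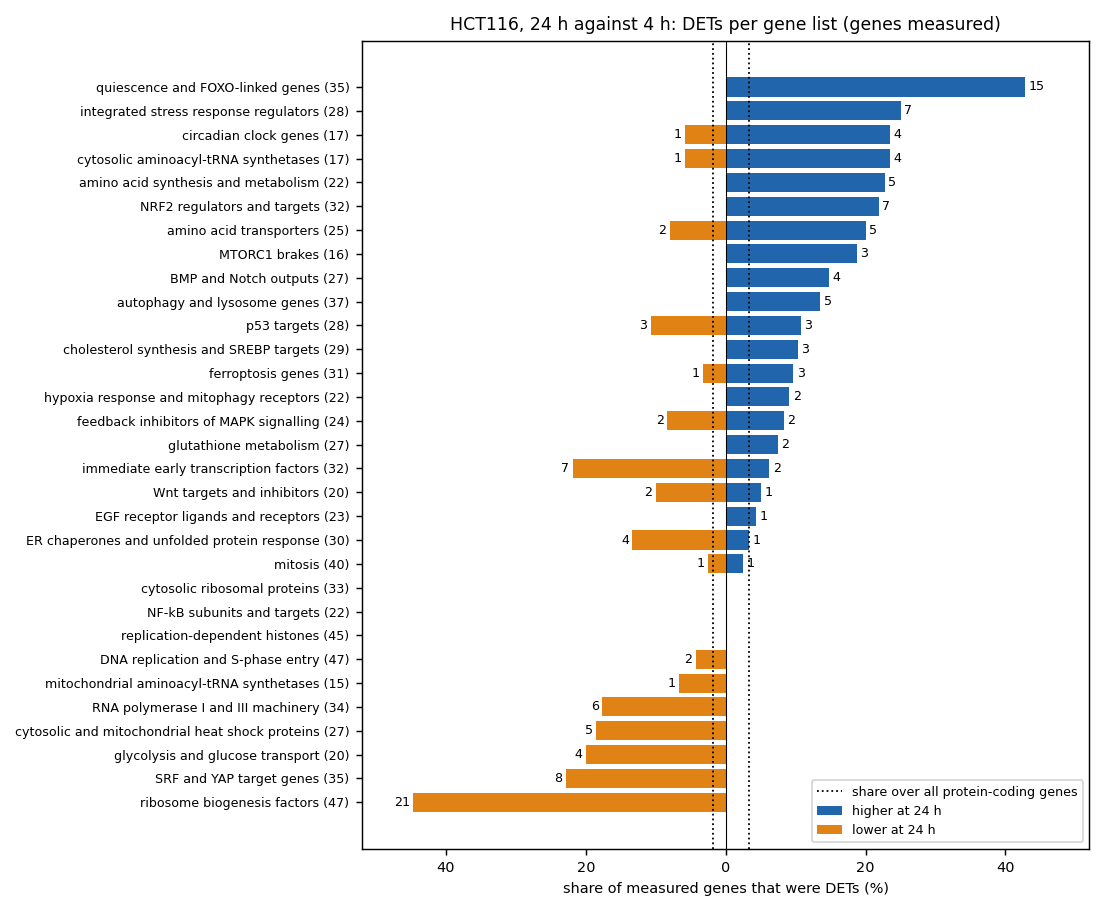
Share of the measured genes of each list (number measured in brackets) that were DETs higher (blue, right) or lower (orange, left) at 24 h than at 4 h of ER, with the counts beside the bars. The lists were chosen with earlier results of these data known. The dotted lines give the shares over all protein-coding genes, 3.35% higher and 1.81% lower; ribosome biogenesis factors, with 21 of 47, reach farthest to the left and quiescence and FOXO-linked genes, with 15 of 35, farthest to the right.

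Antioxidant genes under NRF2, the factor that KEAP1 releases when cysteines are oxidized, were partly higher. NQO1, a quinone reductase, had 13.71, 14.11 and 14.04 at 4 h and 15.82, 15.55 and 15.64 at 24 h, and rose by 1.72 (SE 0.20, limma adjusted p = 0.0146). ABCC3, an exporter of conjugates, had 6.95, 7.18 and 7.35 at 4 h and 9.54, 8.66 and 8.98 at 24 h, and rose by 1.90 (SE 0.25, limma adjusted p = 0.0223). The 4 h arrays of both genes overlapped those of untreated cells. Of 32 regulators and targets measured, 7 were DETs higher and 0 lower, the others being ABCC2 (1.49, SE 0.27), the ferritin light chain FTL (1.00, SE 0.22), GCLC (0.82, SE 0.19), the catalytic subunit of the enzyme that starts glutathione synthesis, HMOX1 (1.43, SE 0.35) and SLC48A1 (0.79, SE 0.22). Other known targets stayed close to their 4 h level, with changes of -0.01 (SE 0.23) for TXNRD1, 0.04 (SE 0.25) for GCLM and -0.33 (SE 0.19) for SRXN1. Of 27 genes of glutathione metabolism, MGST3 (0.83, SE 0.20) and GSTM4 (0.96, SE 0.25) were DETs higher and 0 were lower, and both missed the rule without the 24 h array of replicate 1.

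Of 31 genes of ferroptosis itself, 3 were DETs higher and 1 was lower, with a median of -0.18. SAT1, which breaks down polyamines, had 9.01, 8.53 and 8.55 at 4 h and 13.04, 10.43 and 11.06 at 24 h, a change of 2.82 (SE 0.49, limma adjusted p = 0.0655) that was largest on the 24 h array of replicate 1. ACO1 (0.65, SE 0.18) and SLC11A2 (0.79, SE 0.23), both of iron handling, were the other higher ones and CISD1 (-0.66, SE 0.19), a mitochondrial iron-sulfur protein, the lower one. GPX4, the enzyme that reduces lipid peroxides, had 11.01, 11.12 and 11.5 at 4 h and 11.75, 11.79 and 12.01 at 24 h, so its arrays did not overlap, but its change of 0.64 (SE 0.25) met neither rule. Without the 24 h array of replicate 1, 1 of the 31 was a DET higher and 0 were lower. Of 29 genes of cholesterol synthesis and SREBP targets, HSD17B7 rose by 1.55 (SE 0.22, limma adjusted p = 0.0296), and TM7SF2 and SREBF2 were DETs higher. Of 37 autophagy and lysosome genes, 5 were DETs higher, led by NBR1 (1.25, SE 0.26) and ULK1 (1.06, SE 0.22), or 3 without that array, and 0 were lower.

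Outputs of BMP and Notch signalling held 4 DETs higher and 0 lower among 27 measured. ID1, an inhibitor of helix-loop-helix factors and a direct BMP target, had 9.39, 9.75 and 9.93 at 4 h and 12.33, 11.33 and 11.97 at 24 h, and rose by 2.19 (SE 0.26, limma adjusted p = 0.0146). HES1, a Notch target, was a DET at 1.28 (SE 0.23), as were SMAD6 and DLL1. Of 17 circadian clock genes, NR1D1, a repressor of the clock, went from 11.30, 11.60 and 11.30 to 13.13, 13.20 and 13.53 and rose by 1.89 (SE 0.22, limma adjusted p = 0.0135). BHLHE41, DBP and PER3 were DETs higher and PER2 was a DET lower (-1.14, SE 0.23), and 2 rather than 4 were higher without the 24 h array of replicate 1. BNIP3L (1.72, SE 0.37), a receptor that sends mitochondria to autophagy, and NDRG1 (1.15, SE 0.29) were the DETs among 22 hypoxia genes, both higher, and 1 gene of the list was a DET higher without that array. Among 28 targets of p53, TP53INP1 rose by 1.99 (SE 0.31, limma adjusted p = 0.0444), CCNG1 and XPC were DETs higher and TRIAP1, AEN and PLK2 were DETs lower, while CDKN1A (0.39, SE 0.23) and MDM2 (-0.34, SE 0.26) met neither rule. The 22 genes of NF-kB held 0 DETs.

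Other genes among the 15 with the largest rise belong to none of these lists. PHF21A, a subunit of a histone demethylase complex, had 11.01, 11.71 and 11.36 at 4 h and 14.11, 13.47 and 13.77 at 24 h, a rise of 2.42 (SE 0.23, limma adjusted p = 0.00311). PGPEP1, a peptidase that removes pyroglutamate from peptides, rose by 1.94 (SE 0.28, limma adjusted p = 0.0298). It lies within 50 kb of GDF15 on chromosome 19, at 18340598 to 18369950 on GRCh38.p14, with GDF15 at 18386158 to 18389176. Of the genes that fell, SEMA7A, a membrane-anchored semaphorin, went from 10.73, 9.94 and 9.91 to 7.52, 8.13 and 8.63, a change of -2.10 (SE 0.34, limma adjusted p = 0.0492). GALNT5, which starts mucin-type glycans, changed by -1.89 (SE 0.30), LETM2, a mitochondrial membrane protein, by -1.80 (SE 0.24), LANCL2 by -1.68 (SE 0.24) and KLHL18, an adaptor of a ubiquitin ligase, by -1.31 (SE 0.20), all with limma adjusted p under 0.05.

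Of the 66 transcripts that rose, 59 are of protein-coding genes, as are 10 of the 11 that fell. Non-coding ones included the transcript assigned to MIR3189, a microRNA gene inside GDF15, which had 5.59, 5.59 and 5.75 at 4 h and 8.36, 7.54 and 8.46 at 24 h, a rise of 2.48 (SE 0.27, limma adjusted p = 0.00963). The transcript assigned to MIR4440, inside HDAC4, had 6.62, 6.90 and 6.42 at 4 h and 9.13, 8.38 and 7.99 at 24 h, a rise of 1.85 (SE 0.27, limma adjusted p = 0.0308). The groups did not overlap in either. The array reads long RNA from these places and not the mature microRNAs, whose sequences from RefSeq are shown with the seed, bases 2 to 8, in capitals to identify them; the 3 seeds differ.
hsa-miR-3189-5p: uGCCCCAUcugugcccuggguagga
hsa-miR-3189-3p: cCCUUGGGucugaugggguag
hsa-miR-4440: uGUCGUGGggcuugcuggcuug

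Some transcripts were assigned to pseudogenes. PSAT1P4 rose by 1.56 (SE 0.24, limma adjusted p = 0.0444) with PSAT1. DNAJA1P3 (-1.46, SE 0.33) was a DET lower, as was its parent DNAJA1, and so were 3 copies of HSPA8, a chaperone gene with no single-gene transcript among those tested, HSPA8P7 (-1.44, SE 0.32), HSPA8P5 (-1.37, SE 0.35) and HSPA8P1 (-1.36, SE 0.29). Whether the copies or the parents gave these signals cannot be told apart with this array. The pseudogene transcript UBE2Q2P6 rose by 1.73 (SE 0.22, limma adjusted p = 0.0207), whereas its parent UBE2Q2 changed by 0.03 (SE 0.26), and the antisense RNA DLGAP1-AS1 rose by 1.61 (SE 0.26, limma adjusted p = 0.0499).

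The untreated arrays show from where the genes moved. Of the 66 transcripts that rose, the untreated mean was closer to the 4 h mean in 58, lay beyond the 4 h mean in 6 and was closer to the 24 h mean in 2, HSD17B7 and MARCHF9. The median of 4 h minus untreated over these 66 was -0.33 and that of 24 h minus untreated was 1.28. The 11 that fell had a median of 0.92 for 4 h minus untreated and of -0.97 for 24 h minus untreated. In 4 of them, THBS1, F3, CCN1 and LETM2, the untreated mean was closer to the 24 h mean, and in 7 it was closer to the 4 h mean. These differences share arrays with the comparison of 24 h with 4 h and are given as a description.

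**Figure D4:**
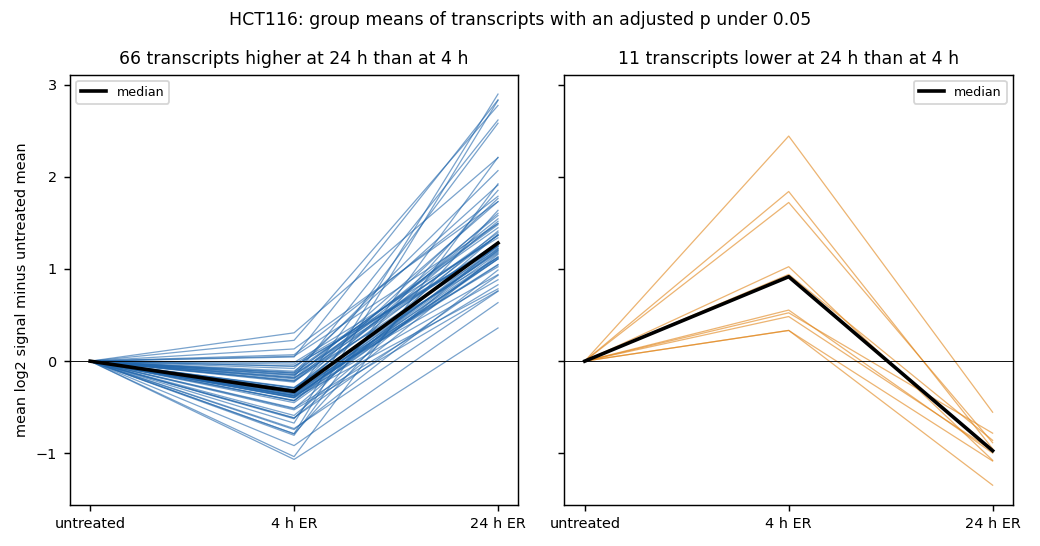
Group means of each of the 66 transcripts that rose (left) and the 11 that fell (right) from 4 h to 24 h of ER, as log2 signal minus the untreated mean; thin lines are transcripts and the thick line is the median. On the left the median passes through -0.33 at 4 h to 1.28 at 24 h, and on the right through 0.92 to -0.97.

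HT-29 cells were treated in the same way, and the same contrast was set beside that of HCT116. The HT-29 arrays of replicate 1 stood apart in LYZ and KRT20, 2 of 10 markers listed as high in that line. The mean log2 signal of LYZ was 17.12 against 10.34 and 11.24 in replicates 2 and 3 and 5.84 in HCT116 cells, and that of KRT20 was 14.15 against 8.68, 9.02 and 7.30. The median member of the 10 lay at 5.28 to 5.43 in the HT-29 groups and at 5.06 to 5.26 in those of HCT116. Summed over the 10, with LYZ and KRT20 included, HT-29 arrays ran from 59.03 to 77.26 and HCT116 arrays from 52.44 to 55.71. In replicates 2 and 3 both genes were thus closer to their level in HCT116 cells than to that in replicate 1, and whether those arrays hold the line on their label was not settled here. Directions and medians are therefore also given for replicate 1 alone, while the DET counts and the interaction rest on all arrays labelled HT-29. All 66 transcripts that rose and all 11 that fell in HCT116 cells changed in the same direction in HT-29 cells, with all HT-29 arrays and with those of replicate 1 alone. Over all single-gene transcripts the share with the same sign was 63.5%, or 60.6% with replicate 1 alone. In HT-29 cells 44 of the 66 were DETs higher at 24 h and 10 of the 11 were DETs lower, where 0.946% and 0.692% of single-gene transcripts were. The median change of the 66 was 1.59 in HCT116 cells and 1.5 in HT-29 cells (1.24 in replicate 1), and that of the 11 was -1.80 and -1.47 (-1.35 in replicate 1). LTV1 was the exception among those that fell, with a change in HT-29 of -1.06 that was not a DET.

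**Figure D5:**
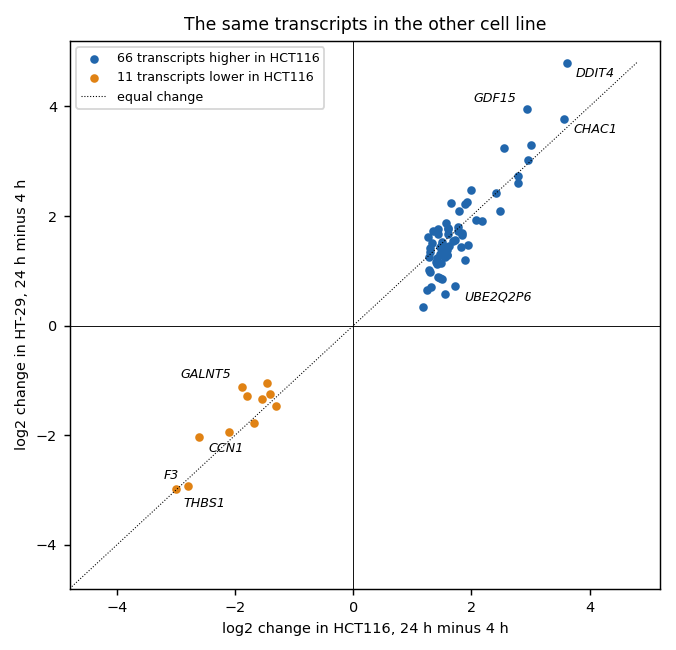
Log2 change from 4 h to 24 h of ER in HCT116 cells (horizontal axis) and in HT-29 cells (vertical axis) for the 66 transcripts that rose (blue) and the 11 that fell (orange) in HCT116; the dotted line marks equal change. All points lie in the 2 quadrants of equal sign, with DDIT4 and GDF15 above the line.

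The difference between the lines, as labelled, was tested as an interaction over all 18 arrays, including the HT-29 arrays of replicates 2 and 3. With limma, 0 of the 35528 transcripts had an adjusted p under 0.05 and 1032 had an unadjusted p under 0.05, and 65 met the DET thresholds (0.183%). The median standard error of the interaction was 0.37, and differences several times that size, such as the 1.63 of CLEC2D, also missed the adjusted test, so a lack of calls does not show that the lines changed alike. Of the 77 called transcripts, 5 had an unadjusted interaction p under 0.05, all among those that rose. DDIT4 changed by 4.8 in HT-29 cells (interaction -1.18, SE 0.44, limma unadjusted p = 0.0153, adjusted p = 0.9999) and GDF15 by 3.95, both more than in HCT116 cells. HSD17B7 changed by 0.57 in HT-29 cells, MED12L by 0.34 and PMS2P7 by 0.66, all less than the 1.55, 1.18 and 1.25 of HCT116 cells. Outside the called transcripts the smallest interaction p belonged to STARD4-AS1, with -0.91 (SE 0.20) in HCT116 and 0.53 (SE 0.25) in HT-29, and among protein-coding genes to CLEC2D, with 1.2 (SE 0.25) in HCT116 and -0.43 (SE 0.27) in HT-29, both with a limma adjusted p of 0.9999. Among the lists, the HT-29 arrays gave 17 DETs lower of 47 ribosome biogenesis factors (21 in HCT116), 7 lower of 34 genes of RNA polymerases I and III (6), 12 higher of 35 quiescence and FOXO-linked genes (15) and 7 higher of 28 stress response regulators (7). Other counts lay farther apart, with 3 SRF and YAP targets lower (8 in HCT116), 2 immediate early factors lower (7), 2 NRF2 genes higher (7), 0 endoplasmic reticulum chaperones lower (4) and 6 DNA replication genes lower (2). Over protein-coding genes HT-29 had 260 DETs higher and 207 lower, against 582 and 314 in HCT116. Median changes were -0.57 in HT-29 and -0.55 in HCT116 for SRF and YAP targets and 0.13 and 0.001 for immediate early factors. They were 0.14 and 0.20 for NRF2 genes, -0.11 and -0.13 for the chaperone list and -0.47 and -0.38 for DNA replication genes. The differences between these counts were not tested.

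The rule for named genes took the members of each list with the smallest p. The further DETs of the lists that are named above, such as ASS1, DDIT3, HBP1, MYC, SLC7A11 and HMOX1, the genes given for having met neither rule, such as ATF3, ATF4, CCN2, EGR1, FOS, FOXO3, GPX4 and HSPA5, and MARCHF9, MED12L and PMS2P7 lie outside it and were chosen after their values were seen.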

How the data were processed

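RNA of HCT116 and HT-29 cells was measured by the study on Affymetrix whole-transcriptome arrays, 3 per group. The authors deposited a single table of normalized log2 signals per transcript and array. Per the methods, signals were normalized by RMA within each cell line, summarized by the mean and log2 transformed, and array software of the maker was also used; which of these made it is not given in the sources used here. Raw signals were not used. Of 138745 features, 2995 controls were left out. Genes were named by the platform annotation, checked against RefSeq names of GRCh38.p14 (24528 gene IDs matched, 0 names changed), and a single transcript, that with the highest mean signal, stands for a gene in lists.

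The 9 HCT116 arrays were fitted with limma 3.58.1 (lmFit, eBayes; R 4.3.3), with p adjusted by Benjamini-Hochberg over all 135750 transcripts, and the interaction over all 18 arrays. The number of arrays limits the precision. The members and the 36 lists (938 of 1032 entries measured) were chosen with earlier results of these data known. Named are the 15 protein-coding genes with the largest change in each direction among those called with non-overlapping arrays, filled from DETs where fewer, up to 5 non-coding ones each way, up to 4 members with the smallest p per list and the smallest interaction p. Alternatives were a Student's t-test without the permutation of the methods, other sets of arrays and transcripts, other normalizations and limma settings, a replicate block and leaving out each array. The fit was tested on simulated data. Tables and figures were made with the data.table package (version 1.17.8), Python 3.11.15, pandas 2.3.3, numpy 2.4.6 and matplotlib 3.10.9.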

Additional observations from a re-analysis of the deposited data

How the results depend on the processing

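All 77 called transcripts kept their direction in the alternatives run on transcripts, while the number called moved. Against 66 higher and 11 lower, a t-test without permutation and with Benjamini-Hochberg adjustment called 0 and 0, and a fit of the 6 treated arrays 11 and 5. Transcripts above the median signal gave 105 and 17, a fit of single-gene transcripts alone 376 and 138, and means over the transcripts of a gene 356 and 137. The last 3 test fewer features and are fits of their own, so limma's estimate of the spread was made anew as well. By the t-test there were 391 DETs higher and 238 lower, against 804 and 449. Leaving out each array in turn gave 7 to 58 called higher and 0 to 12 lower, and 485 to 845 DETs higher and 209 to 582 lower. The fewest calls came without a 4 h array: 8, 7 and 7 higher and 0 lower without replicates 1, 2 and 3. Without the 24 h arrays 18, 24 and 23 were higher and 0, 0 and 6 lower, and without untreated replicate 2, 36 and 8. DETs fell to 485 higher without 4 h replicate 3, and the lower ones to 209, 211 and 246 without 4 h replicates 1 and 2 and 24 h replicate 1. Of 31 named genes called, 7 lost the call only under the t-test (ASNS, CHAC1, DDIT4, GDF15, PHF21A, PHGDH and PNRC1), and 24 lost it under 3 to 15 of 21 alternatives. DKK1, FOSL1 and JUN gained it under 7, 3 and 2.

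Chosen after seeing the data, leaving out the 24 h array of replicate 1 changed the lower DETs of ribosome biogenesis factors from 21 to 7, of immediate early factors from 7 to 3, of heat shock proteins from 5 to 3, of endoplasmic reticulum genes from 4 to 1 and of glycolysis from 4 to 2, and the higher DETs of autophagy genes from 5 to 3. Over protein-coding genes the share of DETs lower went from 1.81% to 0.928% and that of DETs higher from 3.35% to 2.42%. List counts were not redone without other arrays, though DETs lower over single-gene transcripts fell from 449 to 209 and 211 without 4 h replicates 1 and 2. Without the 24 h array of replicate 1 they fell to 246. The cause was not tested.

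With the replicate number as a block, 102 transcripts were called higher and 36 lower, with 76 of the 77 among them. The deviations of same-numbered 4 h and 24 h arrays correlated at 0.197, 0.024 and 0.037, those of untreated and 4 h arrays at 0.168, -0.035 and 0.158 and those of untreated and 24 h arrays at 0.207, -0.071 and 0.245. Those of differently numbered arrays ran from -0.351 to 0.201. Not every same-numbered pair was over 0.1, a cut chosen for this check, so the numbers were not taken to pair the arrays. Whether they do was not settled, since the methods name independent experiments without saying how the numbers were given. The interaction had 0 adjusted calls in every alternative run.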
